A study of Mus musculus with 40 samples.

Results

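A set of 42 genes was silent in the liver of vehicle-treated mice and on in mice given the highest dose of the dioxin TCDD. The genes were chosen from read counts: a gene had at most 3 counts in each of the 5 vehicle libraries and at least 50 counts in at least 4 of the 5 libraries at 30 μg/kg. Of 55359 genes in the count tables, 47 met both limits. Collagens, chemokines, cytochromes P450 and 3 further named genes were left out by their symbols, which removed Slc7a11, Col9a2, Ccl22, Ccl3 and Ahrr and left 42. Because vehicle and 30 μg/kg chose the genes, their difference is given as a description without a test, and tests were run only among the doses in between.

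TCDD is a persistent contaminant that binds AhR, the aryl hydrocarbon receptor, which is a transcription factor switched on by its ligands. Its best known targets are detoxification genes such as Cyp1a1, whose regulatory DNA carries the dioxin response elements that AhR recognises together with ARNT. In mouse liver, repeated TCDD is known for fat accumulation, infiltration of immune cells and fibrosis, and many of the genes described here are known mainly from nerve, skin or immune cells.

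The livers came from male C57BL/6 mice that were 30 days old at the start and 58 days old at the end. They were gavaged with sesame oil alone or with TCDD in sesame oil, 7 times at intervals of 4 days over 28 days. The doses were 0.03 and 0.1 μg/kg at the low end, 0.3, 1 and 3 μg/kg in the middle and 10 and 30 μg/kg at the top, with 5 mice per dose and 5 on vehicle, and each of the 40 libraries held the RNA of whole liver. In such tissue, more cells of a type and more RNA per cell cannot be told apart.

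Libraries held 15496128 to 20967093 counts in genes, so 3 counts were about 0.188 CPM (the usual depth-scaled unit, from TMM-scaled library sizes). The hepatocyte markers Alb, Apoa1, Ttr and Cps1 were found in every library. Replicate 1 at 30 μg/kg stood apart from the other 4 livers at that dose, with the highest hepatocyte marker sum and low counts of many of the 42 genes (described at the end). The sample titles carry numbers that run through the doses in 2 passes, of 19 and 21 libraries. What the passes mark is not stated, so counts of called genes are also given within each.

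As shown by the map of all libraries, the genes came on in steps with dose and mainly between 3 and 30 μg/kg. No vehicle library held more than 3 counts of any of them, by the rule. At 0.03 μg/kg, 2 to 6 of the 42 genes per library had more than 3 counts, and at 0.1 μg/kg 3 to 10. The number was 5 to 10 at 0.3 μg/kg, 9 to 15 at 1 μg/kg and 13 to 23 at 3 μg/kg. It was 31 to 35 at 10 μg/kg, above every library of the lower doses, and 39 to 42 at 30 μg/kg. Summed over 41 genes, without Nptx1, the level was 9.80 to 18.9 CPM at 3 μg/kg, 58.3 to 82.0 CPM at 10 μg/kg and 203 to 551 CPM at 30 μg/kg.

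**Figure D1:**
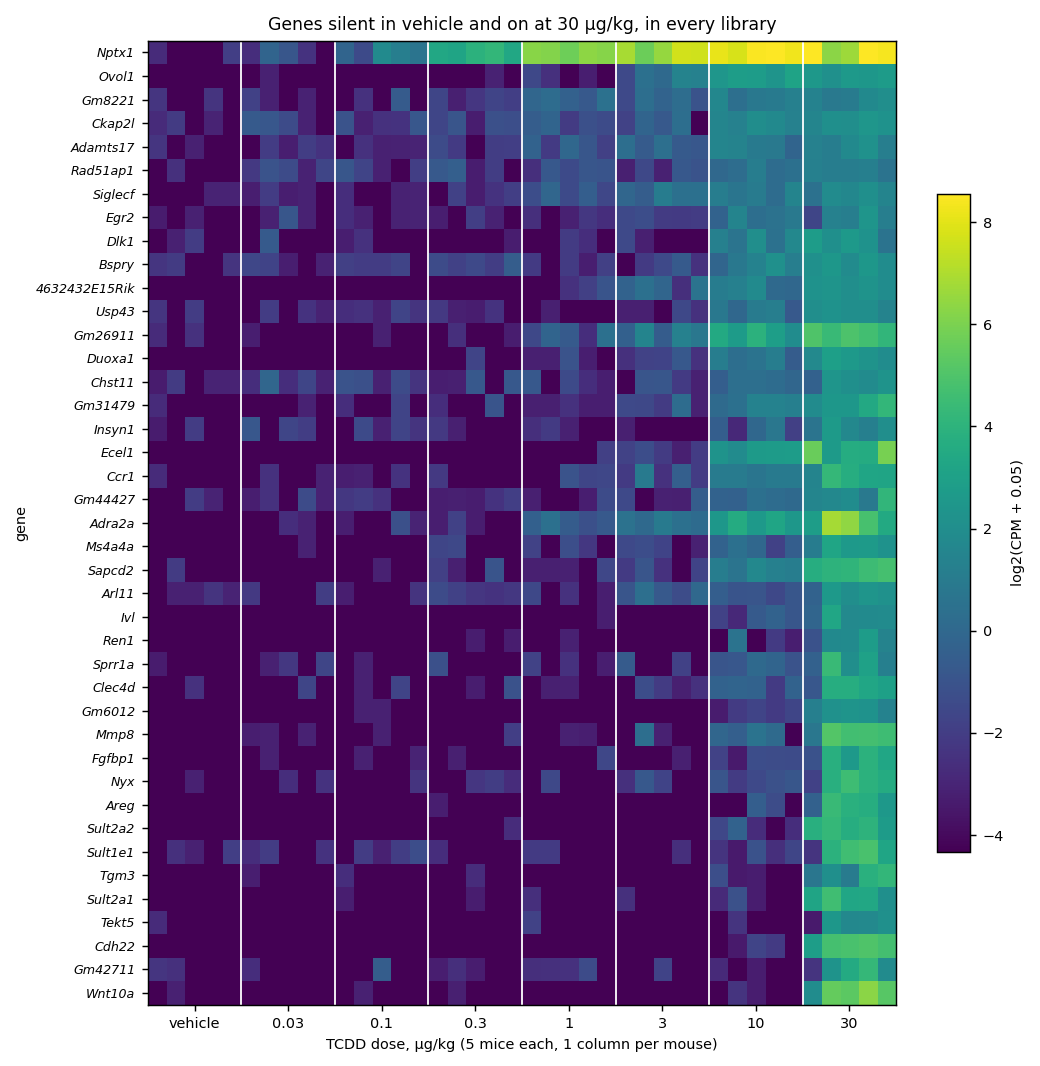
Level of each of 41 of the 42 genes (rows) in each of the 40 libraries (columns, grouped by dose in μg/kg), as log2(CPM + 0.05) in colour. Rows are sorted by the share of the 30 μg/kg level reached at 10 μg/kg, from Nptx1 at the top (123%) to Wnt10a at the bottom (0.0918%), and replicate 1 is the first column of the 30 μg/kg block.

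**Figure D2:**
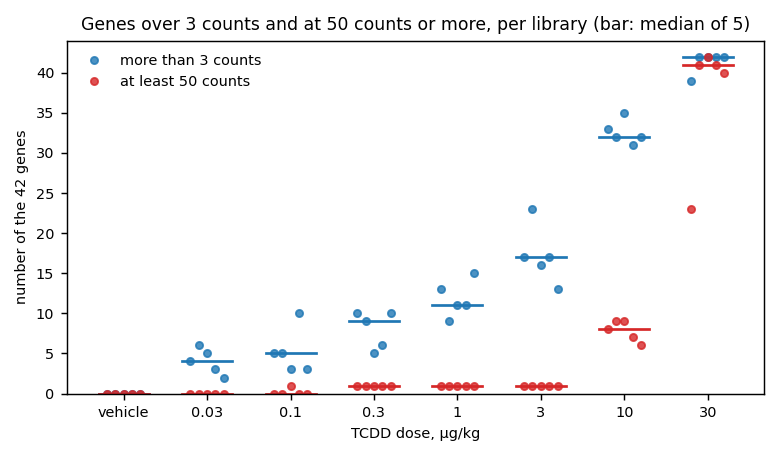
Number of the 42 genes per library with more than 3 counts (blue) and with at least 50 counts (red), by TCDD dose in μg/kg. Points are libraries and bars medians of 5. The blue medians are 17 at 3 μg/kg, 32 at 10 μg/kg and 42 at 30 μg/kg, and the red medians 1, 8 and 41.

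For tests, the 10 libraries at 0.03 and 0.1 μg/kg, which the rule did not use, served as a low-dose reference, and all comparisons with it share those libraries. Of the 42 genes, 38 passed the filter on low counts and were tested. At 10 μg/kg, 35 of 38 were called higher than the reference (edgeR, adjusted p under 0.05 and at least 1.5-fold), against 15.2% of the 15373 genes tested. Within the 2 title passes, 22 and 32 of 38 were called, against 1449 and 1852 of the 15373 genes. Of the 38, 16 did not pass once the vehicle and 30 μg/kg libraries were left out of the filter. Of these 16, Wnt10a, Tgm3 and Gm42711 were not called at 10 μg/kg. The other 13 were among the 35 called: Cdh22, Sult2a1, Sult2a2, Areg, Gm6012, Ren1, Sprr1a, Ivl, Clec4d, Arl11, Insyn1, Usp43 and Ms4a4a. All 16 were tested only because of their level at 30 μg/kg, and their p-values below carry this limit. With the filter that left out vehicle and 30 μg/kg, 22 members were tested. All 22 were called at 10 μg/kg, against 14.7% of 14675 genes. This filter was an alternative chosen after seeing the data. Genes low in the reference pass either filter through the doses at which they are high, so neither count supports the choice of the set. Without any filter, 37 of all 42 were called, and 2679 of 32066 genes. The median log2 difference of the 38 was 4.35, and that of all genes tested was 0.02. At 3 μg/kg 15 of 38 were called higher (5.01% of all genes; 7 and 10 within the passes), at 1 μg/kg 8 (2.58%; 1 and 3) and at 0.3 μg/kg only Nptx1 (0.169%; Nptx1 in both passes). None of the 38 was called lower by edgeR. Of all genes, 7.87% were at 10 μg/kg, 1.9% at 3 μg/kg and 2.34% in the step from 3 to 10 μg/kg. Of the 42, 9 had no count in the reference and 24 had at most 3 counts in each of its libraries. Such genes have little room to fall, so the lack of lower calls says little about them. DESeq2 called Insyn1 lower at 3 μg/kg (adjusted p = 0.0251). The median log2 difference of the 38 was 0.64 at 0.3 μg/kg, 0.86 at 1 μg/kg and 1.38 at 3 μg/kg. Within the passes, 293 and 401 of all genes were called higher at 3 μg/kg, 139 and 116 at 1 μg/kg and 8 and 14 at 0.3 μg/kg.

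The step from 3 to 10 μg/kg was between groups that the rule did not use. It was called upward for 20 of 38 genes (4.43% of all genes tested), with a median log2 difference of 2.33. Within the passes it was called for 3 and 6 (115 and 217 of all genes). With the filter that left out vehicle and 30 μg/kg, it was called for 15 of 22 members (4.36% of all genes). A rising slope over the 30 libraries from 0.03 to 10 μg/kg was called for 34 of 38 (19.4% of all genes). Within the passes it was called for 25 and 30 (1822 and 1903 of all genes). With the filter that left out vehicle and 30 μg/kg, it was called for all 22 members tested (19.6% of all genes). A falling slope was called for none (16.1% of all genes), but genes near the floor at the low doses have little room to fall. Scaling to total counts alone raised the share of higher genes among all called from 65.9% to 82.3% at 10 μg/kg, from 65.4% to 81.6% in the step and from 54.7% to 79.7% in the slope, where 34.1% of all genes then rose and 8.68% fell. Without any test, the 5 libraries at 10 μg/kg all lay above each of the 10 reference libraries for 26 of the 42 genes, and for 8.68% of all genes tested.

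Adra2a, the gene of the alpha-2A adrenergic receptor (ENSMUSG00000033717, chromosome 19), was the only receptor of a neurotransmitter or hormone in the set. This receptor couples to Gi and, in nerve endings, restrains noradrenaline release. It had no count in the 5 vehicle libraries. Replicates 1 to 5 held 0, 0, 2, 1 and 0 counts at 0.03 μg/kg, 1, 0, 0, 6 and 1 at 0.1 μg/kg and 1, 4, 1, 0 and 0 at 0.3 μg/kg. They held 12, 22, 10, 7 and 10 counts at 1 μg/kg and 23, 17, 30, 22 and 17 at 3 μg/kg, so the 3 μg/kg group lay above every library of the reference, and 4 of the 5 libraries at 1 μg/kg did in CPM. On the CPM scale the level was 5.66, 12.3, 6.05, 9.48 and 5.61 at 10 μg/kg and 7.22, 114, 84.0, 27.8 and 11.2 at 30 μg/kg, so that replicates 1 and 5 at 30 μg/kg lay within the 10 μg/kg range. The mean at 30 μg/kg was 48.9 ± 47.6 CPM (SD, n = 5), at least 260-fold over a floor of 3 counts per vehicle library. Against the low-dose reference, Adra2a was 3.38 ± 0.87 log2 units (SE) higher at 1 μg/kg (adjusted p = 0.016), 4.27 ± 0.78 at 3 μg/kg (adjusted p = 0.00021) and 6.82 ± 0.63 at 10 μg/kg (adjusted p = 1.37e-10). The call at 1 μg/kg was lost without replicate 2 at that dose (adjusted p = 0.0738). The step from 3 to 10 μg/kg was 2.55 ± 0.53 (adjusted p = 0.00147).

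Of the 9 adrenergic receptor genes, 8 were tested. At 10 μg/kg 3 were called higher, Adra2a, Adra2c and Adrb1 (15.2% of all genes), and 2 lower, Adra1a and Adrb3 (7.87%). Adra2c, a second alpha-2 receptor, did not meet the limit at 30 μg/kg. Its mean was 0.0249 CPM in vehicle, 2.32 CPM at 3 μg/kg, 6.16 ± 1.79 CPM at 10 μg/kg and 1.33 ± 2.31 CPM at 30 μg/kg, where libraries ranged from 0 to 117 counts. Its log2 difference at 10 μg/kg was 8.25 ± 0.90 (adjusted p = 5.55e-09). Adrb3, the beta-3 receptor best known from fat cells, went the other way, with 8.43 CPM in vehicle, 0.635 CPM at 10 μg/kg and 0.103 CPM at 30 μg/kg, and fell by 3.55 ± 0.32 on the log2 scale at 10 μg/kg (adjusted p = 3.29e-11). Adra1b, which mediates catecholamine signalling in hepatocytes, had 134 CPM in vehicle and was not called at 10 μg/kg (log2 difference -0.32 ± 0.15, adjusted p = 0.0957).

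**Figure D3:**
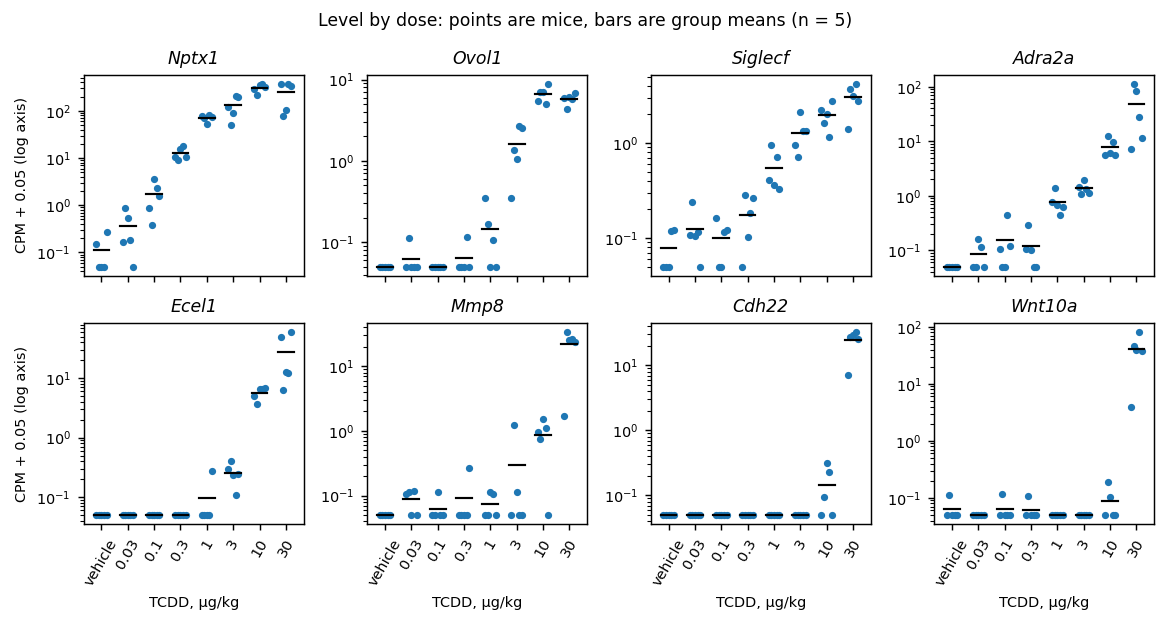
CPM + 0.05 on a log axis against TCDD dose in μg/kg for 8 genes. Points are mice and bars group means (n = 5). Nptx1 leaves the floor from 0.1 μg/kg, Siglecf and Adra2a from 1 μg/kg, Ovol1 from 3 μg/kg, Ecel1 and Mmp8 mainly at 10 μg/kg, and Cdh22 and Wnt10a show no or few counts below 30 μg/kg.

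Ecel1 (ENSMUSG00000026247, chromosome 1) encodes a membrane metallopeptidase of the M13 family that is known from neurons. It had no count in any of the 20 libraries of vehicle, 0.03, 0.1 and 0.3 μg/kg. At 1 μg/kg the counts were 0, 0, 0, 0 and 4, and at 3 μg/kg 4, 6, 3, 1 and 3. The 10 μg/kg livers held 102, 78, 125, 113 and 124 counts, a tight group that was at least 30.4-fold above the floor of the reference. At 30 μg/kg they were 1070, 153, 329, 308 and 1423, with a mean of 28.1 ± 24.7 CPM. In CPM, 4 of these 5 lay above every 10 μg/kg library, and replicate 2 at 6.36 CPM lay within the range of 3.60 to 6.89 CPM at 10 μg/kg. In this gene replicate 1 was the second highest at 30 μg/kg. The call at 10 μg/kg had an adjusted p of 6.39e-09, and the step from 3 to 10 μg/kg was 4.73 ± 0.67 log2 units (adjusted p = 6.74e-05). The call at 3 μg/kg rested on few reads (adjusted p = 0.0379), and it was lost without any 1 of 6 libraries, with adjusted p between 0.0501 and 0.104. Of the 7 genes of the family, 3 were tested. Mme, which encodes neprilysin, fell by 1.56 ± 0.36 on the log2 scale at 10 μg/kg (adjusted p = 0.000598), and Ece1 fell by 0.47 ± 0.10, less than the 1.5-fold required.

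The other 4 genes of proteases or their relatives were all called at 10 μg/kg, as were 35 of the 38 tested members and 15.2% of all genes. Among the 4, Ren1 and Usp43 passed the filter only with the vehicle and 30 μg/kg libraries. Mmp8, a collagenase stored in neutrophils, had 19, 15, 28, 18 and 0 counts at 10 μg/kg and 36, 815, 657, 658 and 566 at 30 μg/kg, with 3.73% of the 30 μg/kg level at 10 μg/kg. It was 4.82 ± 0.99 log2 units above the reference at 10 μg/kg (adjusted p = 0.000193). Adamts17, a secreted metalloprotease of the matrix, was on earlier and reached 68.7% of its 30 μg/kg level at 10 μg/kg: 60, 57, 37, 31 and 15 counts at 10 μg/kg and 53, 51, 88, 115 and 52 at 30 μg/kg, with a call from 1 μg/kg (2.51 ± 0.54, adjusted p = 0.00258). Ren1, the gene of renin, had 0, 31, 0, 3 and 1 counts at 10 μg/kg and 9, 82, 93, 176 and 64 at 30 μg/kg. Its call at 10 μg/kg (adjusted p = 0.00166) was lost without replicate 2 (adjusted p = 0.0691). Usp43, a deubiquitinase, had 10 to 39 counts at 10 μg/kg and 63 to 111 at 30 μg/kg, and stepped up by 3.69 ± 0.61 log2 units from 3 to 10 μg/kg (adjusted p = 6.28e-05).

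Of the 5 secreted or shed factors, Nptx1 and Wnt10a marked the ends of the dose range. Nptx1 encodes neuronal pentraxin 1, a synaptic protein. It had 2, 0, 0, 0 and 3 counts in vehicle, 2, 13, 9, 2 and 0 at 0.03 μg/kg and 15, 5, 55, 34 and 21 at 0.1 μg/kg. At 0.3 μg/kg there were 188, 153, 294, 274 and 195 counts, with no overlap with any lower dose, and at 1 μg/kg 1297, 1205, 840, 1506 and 1312. At 3 μg/kg there were 1953, 849, 1454, 3486 and 3113. The counts at 10 μg/kg were 5908, 4772, 6893, 6341 and 5649, and at 30 μg/kg 8127, 1902, 2708, 9475 and 7784, so the top doses overlapped. In CPM the mean at 10 μg/kg was 123% of that at 30 μg/kg, while the mean counts were 5913 and 5999. The log2 difference from the reference was 4.10 ± 0.41 at 0.3 μg/kg (adjusted p = 1.52e-08), 6.60 ± 0.40 at 1 μg/kg (adjusted p = 1.69e-15), 7.48 ± 0.40 at 3 μg/kg (adjusted p = 3.34e-17) and 8.71 ± 0.41 at 10 μg/kg (adjusted p = 2.75e-19). The reference itself held 156 Nptx1 counts, most of them at 0.1 μg/kg, so these differences are not differences from vehicle.

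Wnt10a, a ligand of the canonical Wnt pathway, was on at the top dose alone. It had a total of 1 count in vehicle, 0, 3, 1, 0 and 0 counts at 10 μg/kg and 82, 1114, 1029, 2041 and 880 at 30 μg/kg, a mean of 41.5 ± 27.5 CPM. It was not called at 10 μg/kg (adjusted p = 0.351), where the level was 0.0918% of that at 30 μg/kg. A list of 4 hepatic Wnt pathway target genes was chosen after the members were seen. At 10 μg/kg, Axin2 was called higher (0.97 ± 0.18, adjusted p = 4.44e-05), as were 15.2% of all genes. Lgr5 was called lower (-0.65 ± 0.21, adjusted p = 0.0112), as were 7.87%. The summed level of the list was 58.9 to 85.6 CPM in vehicle, 70.5 to 179 CPM at 10 μg/kg and 68.9 to 142 CPM at 30 μg/kg. A link of these genes to Wnt10a was not tested.

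Areg encodes amphiregulin, a ligand of the epidermal growth factor receptor (EGFR). It had 0, 0, 13, 6 and 0 counts at 10 μg/kg and 16, 505, 381, 323 and 138 at 30 μg/kg. Its call at 10 μg/kg (adjusted p = 0.0256) was lost without replicate 3 (adjusted p = 0.141) or replicate 4 (adjusted p = 0.0566), and DESeq2 did not make it. Of 7 EGFR ligand genes, a list made after the members were seen, 6 were tested. At 10 μg/kg 5 were called higher, Areg itself, Egf, Tgfa, Hbegf and Ereg, against 15.2% of all genes. Ereg, which encodes epiregulin, had 0.441 CPM in vehicle, 1.39 CPM at 10 μg/kg and 18.4 CPM at 30 μg/kg. Fgfbp1, a carrier that releases fibroblast growth factors from the matrix, had 5, 1, 7, 6 and 6 counts at 10 μg/kg and 9, 337, 162, 392 and 229 at 30 μg/kg. It did not pass the filter, and its ratio at 10 μg/kg over the reference was 13.7 (exact 95% interval 4.19 to 71.1, counting error only). Dlk1, a Notch-related membrane protein of fetal liver and precursor cells, had 49, 33, 79, 23 and 57 counts at 10 μg/kg and, at 30 μg/kg, 149, 100, 116 and 34 in replicates 1, 2, 4 and 5, with replicate 3 the highest of the 5 in counts. It was not called at 3 μg/kg (0.13 ± 0.92, adjusted p = 0.961) and stepped up by 4.97 ± 0.82 log2 units to 10 μg/kg (adjusted p = 6.76e-05).

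Several genes are known from the cornified layer of skin. Ivl (involucrin) and Sprr1a are precursors of the cornified envelope, Tgm3 is a transglutaminase that cross-links it, and Ovol1 is a transcription factor of epithelial differentiation. They did not share a dose of onset. Ovol1 had 0 or 1 count in each of the 10 reference libraries, 5, 22, 16, 45 and 39 at 3 μg/kg, 113, 153, 132, 85 and 159 at 10 μg/kg and 127, 104, 158, 142 and 160 at 30 μg/kg. It was called from 3 μg/kg (adjusted p = 2.49e-09), and its level in CPM at 10 μg/kg was 116% of that at 30 μg/kg. The ratio at 10 μg/kg over the single count in the reference was 1059 (exact 95% interval 189 to 41895). Ivl had no count in the reference, 5, 2, 11, 13 and 9 counts at 10 μg/kg (adjusted p = 7.6e-05) and 19, 232, 87, 90 and 87 at 30 μg/kg. Sprr1a had 10, 11, 19, 14 and 8 counts at 10 μg/kg (3.84 ± 0.90, adjusted p = 0.000742) and 16, 507, 108, 206 and 54 at 30 μg/kg. Tgm3 had 8, 1, 1, 0 and 0 at 10 μg/kg, was not called there (adjusted p = 0.173), and had 35, 101, 53, 365 and 439 at 30 μg/kg. Of 7 genes of epidermal keratinocytes, listed after the members were seen, Krt1, Krt5 and Flg had no count in the vehicle, 10 μg/kg or 30 μg/kg groups, and the summed level of the list was 1.75 to 3.24 CPM in vehicle and 1.41 to 2.13 CPM at 30 μg/kg.

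Cdh22, a cadherin of cell adhesion, had no count in the 30 libraries from vehicle to 3 μg/kg, 0, 1, 5, 3 and 0 counts at 10 μg/kg and 152, 660, 770, 824 and 611 at 30 μg/kg. The call at 10 μg/kg (adjusted p = 0.04) rested on 9 reads, was lost without any 1 of 4 libraries (adjusted p 0.0501 to 0.129) and was not made by DESeq2. Tekt5, a tektin of cilia and flagella, had 3 counts in 1 library at 10 μg/kg and 1, 135, 82, 84 and 103 at 30 μg/kg, and was not tested.

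Sulfotransferases made up 4 of the 5 enzyme genes. Sult1e1, Sult2a1 and Sult2a2 add sulfate to steroids and other small molecules. The Sult2a enzymes also act on bile acids, and in adult mouse liver the Sult2a genes are known for higher levels in females. Sult1e1, which acts on estrogens, had 3, 1, 8, 2 and 5 counts at 10 μg/kg and 3, 375, 631, 721 and 226 at 30 μg/kg. Sult2a1 had 2, 9, 1, 0 and 0 counts at 10 μg/kg and 200, 586, 254, 265 and 101 at 30 μg/kg, and its neighbour and near copy Sult2a2 had 6, 17, 2, 0 and 2 and then 302, 460, 337, 405 and 158. Reads of these neighbours may be split between them, since reads that map to several places were not counted. These 3 reached at most 1.87% of the 30 μg/kg level at 10 μg/kg. Sult2a2 (adjusted p = 0.000743) and Sult2a1 (adjusted p = 0.0123) were called at 10 μg/kg by edgeR but not by DESeq2, and the Sult2a1 call was lost without replicate 2 (adjusted p = 0.197). Unlike Sult1e1, both Sult2a genes were within the range of the other mice in replicate 1 at 30 μg/kg. Chst11, a chondroitin sulfotransferase, had 14 to 27 counts at 10 μg/kg and 16 to 126 at 30 μg/kg (1.85 ± 0.57 at 10 μg/kg, adjusted p = 0.00969).

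All 4 immune cell genes were called at 10 μg/kg and 3 of them at 3 μg/kg. Of the 38 tested members 35 and 15 were, and of all genes 15.2% and 5.01%. Of the 4, Clec4d and Ms4a4a passed the filter only with the vehicle and 30 μg/kg libraries. Siglecf, a sialic acid-binding receptor of eosinophils and some macrophages, was the earliest: 6, 15, 5, 12 and 5 counts at 1 μg/kg, 15, 11, 33, 22 and 20 at 3 μg/kg, 45, 34, 38, 19 and 49 at 10 μg/kg and 29, 87, 80, 105 and 65 at 30 μg/kg. It was 2.90 ± 0.52 log2 units above the reference at 1 μg/kg (adjusted p = 0.000282) and 4.81 ± 0.46 at 10 μg/kg (adjusted p = 8.86e-11), and the step from 3 to 10 μg/kg was not called (0.62 ± 0.42, adjusted p = 0.417). Ccr1, a chemokine receptor of myeloid cells, had 3, 32, 2, 12 and 3 counts at 3 μg/kg (3.65 ± 0.74, adjusted p = 0.000614), 42, 43, 30, 33 and 33 at 10 μg/kg and 60, 454, 341, 242 and 217 at 30 μg/kg. Ms4a4a, a membrane protein of macrophages, had 16, 28, 18, 4 and 12 counts at 10 μg/kg and 44 in replicate 1 and 113 to 229 in the others at 30 μg/kg, and its call at 3 μg/kg (adjusted p = 0.0131) was lost without replicate 2 at that dose (adjusted p = 0.052). Clec4d, a C-type lectin of macrophages and neutrophils, had 16, 18, 15, 3 and 14 and then 11, 315, 345, 245 and 187.

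General markers of these cells moved over the same doses. All 7 macrophage markers (Adgre1, Csf1r, Cd68, Clec4f, Cd5l, Trem2, Itgax) were called higher at 10 μg/kg, 5 at 3 μg/kg and 4 at 1 μg/kg. Of all genes, 15.2%, 5.01% and 2.58% were. The summed level of these markers was 128 to 181 CPM in vehicle, 292 to 502 CPM at 10 μg/kg and 433 to 1019 CPM at 30 μg/kg. Of the 5 neutrophil markers 4 were tested and all 4 were called at 3 and 10 μg/kg, with a sum of 0.350 to 1.29 CPM in vehicle, 3.41 to 7.24 CPM at 10 μg/kg and 8.24 to 33.0 CPM at 30 μg/kg, while Ly6g had no count in vehicle or at 10 μg/kg. A single 3 μg/kg library, replicate 2, held 18.7 CPM of them, while the median at that dose was 1.46 CPM and the lowest value 0.320 CPM. Whether the 4 marker calls at 3 μg/kg hold without replicate 2 was not tested. The same library had the most Ccr1 and Mmp8 counts at that dose (32 and 20). This library also had the highest share of unmapped reads (11.3%) and the lowest share of reads in genes (71.3%) of all 40. Without it, 13 of 38 members were called at 3 μg/kg, and Ccr1 and Mmp8 were called in the step from 3 to 10 μg/kg (adjusted p = 0.00503 and 0.00559). The part of these cells in the levels of the 4 immune genes and Mmp8 was not tested.

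Ckap2l, a protein of the mitotic spindle, Rad51ap1, a DNA repair protein, and Sapcd2, which orients the spindle, are linked to cell division or DNA repair. Ckap2l had more than 3 counts in most libraries from 0.3 μg/kg, but was called only at 10 μg/kg (3.41 ± 0.46, adjusted p = 1.53e-07), with 60, 54, 74, 57 and 45 counts there and 62, 103, 106, 136 and 110 at 30 μg/kg. Rad51ap1 had 20, 25, 41, 19 and 23 counts at 10 μg/kg (2.47 ± 0.50, adjusted p = 0.000134) and 51, 51, 56, 58 and 34 at 30 μg/kg. Sapcd2 had 45, 32, 60, 40 and 39 counts at 10 μg/kg and 280, 388, 457, 567 and 636 at 30 μg/kg, and was called from 3 μg/kg (adjusted p = 0.0046) on. The dividing cell markers Mki67, Top2a and Cdk1 were all called higher at 10 μg/kg (15.2% of all genes) and none at 3 μg/kg (5.01%). The sum of these markers was 2.44 to 4.42 CPM in vehicle, 17.9 to 41.5 CPM at 10 μg/kg and 37.7 to 58.1 CPM at 30 μg/kg. Their part in the levels of the 3 genes was not tested.

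Among the remaining coding genes, Duoxa1, a maturation factor of the dual oxidases, had no count in the reference, 45, 26, 28, 37 and 11 counts at 10 μg/kg and 72, 183, 163, 124 and 89 at 30 μg/kg. It was called from 1 μg/kg (adjusted p = 0.0355), where 7 of the 10 reads came from replicate 3, without which the call was lost (adjusted p = 0.256), as it was without 1 of 2 reference libraries (adjusted p = 0.0509 and 0.0512). Its dual oxidase partner Duox1 lay just outside the set, with 47 counts in the fourth highest library at 30 μg/kg. Egr2, an immediate-early transcription factor, had 16, 59, 23, 24 and 32 counts at 10 μg/kg and 6, 60, 58, 131 and 53 at 30 μg/kg, and stepped up by 2.66 ± 0.63 log2 units from 3 to 10 μg/kg (adjusted p = 0.00495). Arl11, a small GTPase of macrophages, was higher at 3 μg/kg (3.58 ± 0.60, adjusted p = 5.03e-05) and showed no further step to 10 μg/kg (-0.58 ± 0.55, adjusted p = 0.617), with 8, 21, 9, 6 and 15 and then 14, 10, 9, 5 and 9 counts, before 17, 149, 105, 132 and 109 at 30 μg/kg. Bspry had 18 to 75 counts at 10 μg/kg and 91 to 139 at 30 μg/kg, Insyn1 had 2 to 28 and 32 to 155 (called at 10 μg/kg with adjusted p = 0.0123, or 0.1102 without replicate 4), and Nyx had 4 to 10 and 5 to 611 and was not tested.

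The set held 7 genes that code for no protein in the annotation used. Gm26911, annotated as antisense, was called from 1 μg/kg (adjusted p = 3.07e-05) and had 233, 143, 298, 126 and 69 counts at 10 μg/kg and 705, 511, 805, 631 and 417 at 30 μg/kg. It overlaps Pdzrn3 on the other strand, and the counts keep no strand, so reads of the pair cannot be told apart. 4632432E15Rik had no count in the reference and 43, 51, 68, 17 and 17 counts at 10 μg/kg, at least 10.5-fold above its floor, with a call from 1 μg/kg (adjusted p = 0.0177) that was lost without replicate 5 at that dose (adjusted p = 0.0947). The pseudogene Gm8221 was called from 1 μg/kg (3.11 ± 0.55, adjusted p = 0.000264) and reached 74.3% of its 30 μg/kg level at 10 μg/kg. Gm31479 was called from 3 μg/kg (adjusted p = 0.00398), a call lost without replicate 4 at that dose (adjusted p = 0.0743), and Gm44427 and the pseudogene Gm6012 at 10 μg/kg. Gm42711 came on at 30 μg/kg alone, with 2, 0, 1, 0 and 0 counts at 10 μg/kg (adjusted p = 0.751) and 3, 118, 302, 482 and 87 at 30 μg/kg. In all, 11 of the 42 genes overlap another gene on the opposite strand, among them Duoxa1, Ovol1, Ckap2l, Rad51ap1, Cdh22 and Tgm3, and their counts are uncertain to that extent.

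By the tests, the dose of onset was 0.3 μg/kg for Nptx1, 1 μg/kg for 7 genes, 3 μg/kg for 7 and 10 μg/kg for 20. Wnt10a, Tgm3 and Gm42711 were not called below 30 μg/kg, and 4 genes were not tested. These tallies include genes that passed the filter only with the vehicle and 30 μg/kg libraries, most of them called at 10 μg/kg. Onset by detection means more than 3 counts in at least 4 of 5 libraries from a dose upward. It was 0.1 μg/kg for Nptx1, 0.3 μg/kg for Ckap2l and 1 μg/kg for 5 genes. It was 3 μg/kg for 3, 10 μg/kg for 21 and 30 μg/kg for 11. The definitions lay farthest apart for Ckap2l, called from 10 μg/kg and detected from 0.3 μg/kg, and for Duoxa1, called from 1 μg/kg and detected from 10 μg/kg. Cdh22, Sult2a1, Sult2a2, Areg, Ren1 and Gm6012 were called at 10 μg/kg and detected only at 30 μg/kg. The class with the lowest share of the 30 μg/kg level at 10 μg/kg was that of the enzymes (median 1.29% over 5 genes), followed by the secreted factors (2.92%), matrix, adhesion and cytoskeleton (8.92%), the immune genes (15.5%) and the proteases (20.3%). Over all 42 genes the median was 16.3% at 10 μg/kg and 2.51% at 3 μg/kg. In 13 genes the level at 10 μg/kg was at most 5% of that at 30 μg/kg, and in 2, Nptx1 and Ovol1, it was above 100%. These shares are in CPM, and the TMM scaling factors were 0.955 to 1.22 at 10 μg/kg and 1.22 to 1.40 at 30 μg/kg. Unscaled Nptx1 counts had means of 5913 and 5999, and Ovol1 counts were 85 to 159 and 104 to 160. How far both lie over 100% thus depends on the scaling. In neither Nptx1 nor Ovol1 did the groups separate, as the libraries at 10 μg/kg lay within or overlapped the range at 30 μg/kg.

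**Figure D4:**
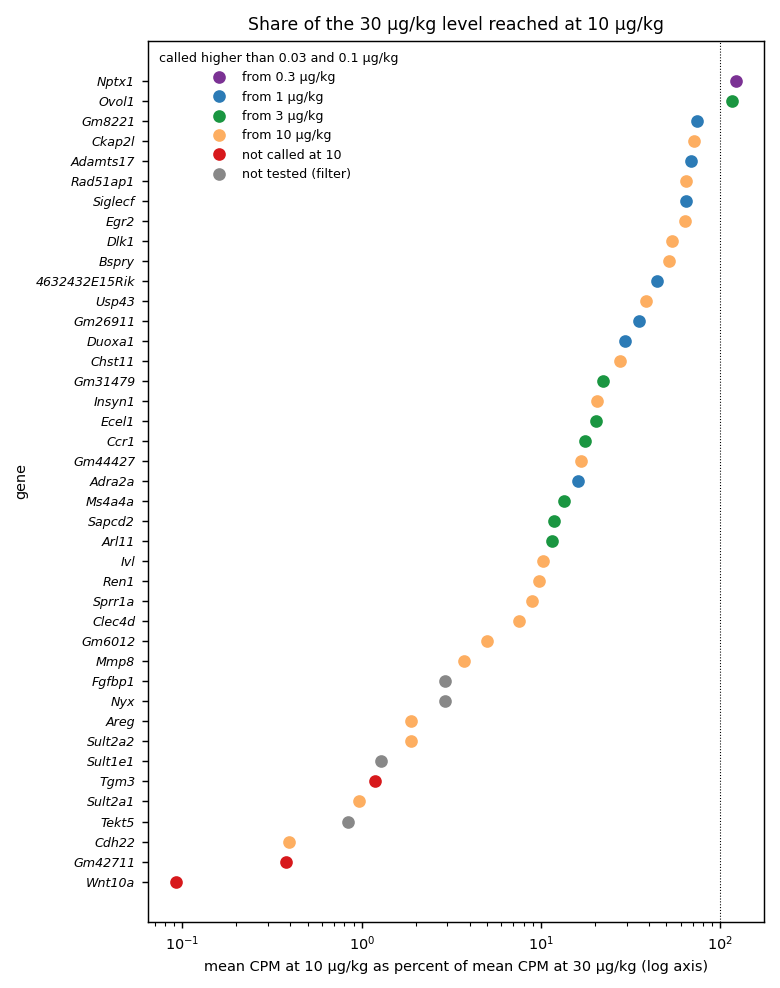
Mean CPM at 10 μg/kg as a percentage of mean CPM at 30 μg/kg (log axis) for 41 of the 42 genes, coloured by the lowest dose from which the gene was called higher than the 0.03 and 0.1 μg/kg libraries. The dotted line marks equal levels. Genes range from Wnt10a (0.0918%) to Nptx1 (123%).

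The 5 mice at 30 μg/kg differed widely, with a median coefficient of variation of 54.5% over the 42 genes, against 46.5% at 10 μg/kg. Replicate 1 was the lowest of the 5 in 28 genes, within the range of the other 4 in 10 and the highest in 4, and its median level was 36.3% of the median of the others. It held under 10 counts of 7 genes, among them Sult1e1 (3 counts), Nyx (5), Gm42711 (3) and Tekt5 (1). Of the 23 genes with under 50 counts in some 30 μg/kg library, that library was replicate 1 in 19. In CPM, the genes in which replicate 1 was highest were Nptx1, Gm26911, Dlk1 and Rad51ap1. Replicate 2 was the highest in 17 genes, and its Adra2a and Sprr1a counts were the highest of all libraries. The hepatocyte marker sum was 57567 CPM in replicate 1 and 27346 to 45609 CPM in the other 4, against 94338 to 115942 CPM in vehicle, and the stellate cell and fibroblast sum was 234 CPM against 313 to 449 CPM. The part of these differences in the levels of the 42 genes was not tested. The tests among the lower doses used replicate 1 only for the shared spread and the filter.

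**Figure D5:**
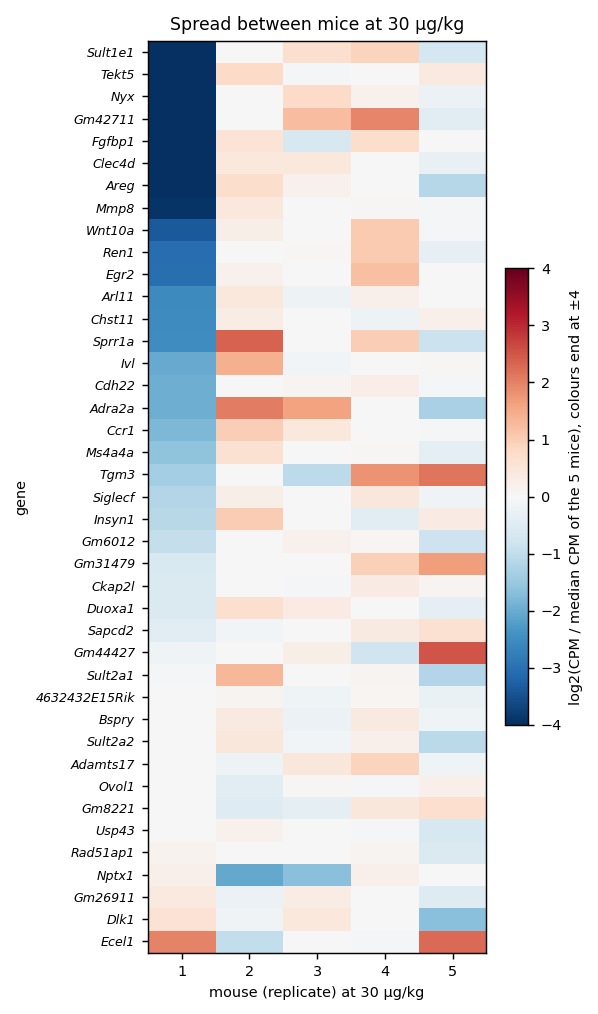
log2 of the CPM of each mouse at 30 μg/kg over the median of the 5 mice, for 41 of the 42 genes, sorted by replicate 1. Blue marks levels below the median and red above, and colours end at ±4. Replicate 1 (left column) is blue for most genes and red for Ecel1, and its lowest values are those of Sult1e1 (0.139 CPM) and Tekt5 (0.0463 CPM).

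The limits of the rule passed through a continuum. Just inside, Rad51ap1 had 51 counts in the fourth highest 30 μg/kg library, Adamts17 and Gm8221 52, and Tgm3 and Egr2 53, and 13 genes had a vehicle maximum of exactly 3. Just outside, Duox1, Xpnpep2, Tubb3 and Gm47990 had 45 to 47 counts in the fourth highest library, and 11 genes had a vehicle maximum of 4. Among these was Mmp12, macrophage elastase, with 1836 counts in the fourth highest 30 μg/kg library.

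Since AhR acts at dioxin response elements, the 250 bases before the transcription start were searched for the core of that element, GCGTG, on both strands (CACGC on the other). Promoters of 30 of the 42 genes were in the RefSeq table (34 promoters, build GRCm38.p6), and 7 of the 34 (20.6%) held the core, against 28.2% of 32851 promoters of the same length. Egr2 alone gave several of the 34, some nearly identical and none with a core, which lowers the share. The 7 with a core belong to different genes among the 30. The 32851 promoters likewise came from fewer genes, 27025. Shown are the marker genes Adra2a and Ecel1, which hold no core, Dlk1 with 1 core, and Rad51ap1 with the largest number, 4. Capitals mark the core. The windows, in that order, are chr19:54045009-54045258, plus strand, chr1:87156357-87156606, minus strand, chr12:109452573-109452822, plus strand and chr6:126939588-126939837, minus strand, each written 5′ to 3′ on the strand of its gene.
Adra2a: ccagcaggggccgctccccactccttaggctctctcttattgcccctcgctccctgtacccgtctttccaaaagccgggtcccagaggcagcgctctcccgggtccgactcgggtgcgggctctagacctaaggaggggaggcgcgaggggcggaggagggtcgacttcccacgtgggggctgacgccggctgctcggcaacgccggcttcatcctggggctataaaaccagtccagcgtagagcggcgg
Ecel1: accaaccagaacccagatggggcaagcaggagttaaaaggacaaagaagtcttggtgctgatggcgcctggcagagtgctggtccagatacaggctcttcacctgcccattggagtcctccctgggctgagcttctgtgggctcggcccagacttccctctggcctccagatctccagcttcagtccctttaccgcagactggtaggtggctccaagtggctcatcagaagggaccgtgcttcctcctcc
Dlk1: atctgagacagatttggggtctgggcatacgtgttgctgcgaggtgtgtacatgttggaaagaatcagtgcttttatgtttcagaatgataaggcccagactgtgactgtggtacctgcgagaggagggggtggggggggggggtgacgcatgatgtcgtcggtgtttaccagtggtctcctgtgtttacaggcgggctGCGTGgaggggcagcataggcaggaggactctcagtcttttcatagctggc
Rad51ap1: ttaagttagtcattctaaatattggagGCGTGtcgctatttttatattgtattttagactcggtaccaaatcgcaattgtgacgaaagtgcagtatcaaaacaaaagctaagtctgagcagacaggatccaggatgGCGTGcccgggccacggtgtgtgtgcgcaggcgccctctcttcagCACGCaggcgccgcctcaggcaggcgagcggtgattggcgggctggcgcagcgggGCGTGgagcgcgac
The Dlk1 core begins 51 bases before the start, and the Rad51ap1 cores 223, 114, 69 and 14 bases before it. The longer form TNGCGTG, which contains the core, was found in 1 of the 34 promoters, that of Rad51ap1, and in 4.10% of all promoters. The other promoters with a core were those of Bspry, Ccr1, Chst11, Fgfbp1 and Gm26911. A match is a run of letters and not a binding site, and no binding was measured here.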

How the data were processed

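Total RNA of frozen mouse liver was sequenced as paired-end reads of 150 bases. The authors deposited counts per gene for each library as the aligner wrote them, with an unstranded column and a column for each strand. The submitters' processing notes name FastQC 0.11.7, Trimmomatic 0.39 and STAR 2.7.3a, and 2 genome builds without saying which was used, so no gene coordinates from the files are given. The strand columns held near equal shares (50.0% to 50.3%), and the unstranded column was used. Rows for unmapped, multiply mapped, unassigned and ambiguous reads were left out, and reads in genes were 71.3% to 80.8% of each library. A normalized table on a log2 scale was not used here.

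Of 55359 gene identifiers, 52083 matched GENCODE M21, used only for symbols, gene types, chromosomes and overlaps. Promoters came from RefSeq (GRCm38.p6), and each was credited by symbol.

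Counts were fitted in R 4.3.3 with edgeR 4.0.16 (quasi-likelihood test, with libraries scaled by TMM, the trimmed mean of M-values). The default filter by dose group (minimum count 10, minimum total 15) left 15373 genes. All 40 libraries entered 1 fit, with a mean per dose. P-values were adjusted by Benjamini-Hochberg over all genes tested, and a call needed an adjusted p under 0.05 and at least 1.5-fold. The slope over 6 dose steps used 30 libraries and no fold limit. The fit with a mean per dose was tested on simulated data with 200 changed genes, and the slope fit was not. Alternatives were DESeq2 1.42.0, other scaling, no filter, a fit on 30 libraries, the title passes, 0.03 μg/kg alone as reference, and each library left out.

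Groups came from the dose in the labels, and the 5 samples of a group are separate samples there. Differences are log2 with an approximate standard error, worked back from the difference and its test statistic and unreliable where counts are few. Intervals of ratios are exact and cover counting error only. Against groups without counts, folds are bounds against 3 counts per library, and replicates were numbered in accession order. Replicate pairs differed by more than sampling noise (chi-square per degree of freedom at least 10.2).

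The members and lists were chosen with earlier results of these data known. Named genes were Adra2a and Ecel1, the 15 members highest at 30 μg/kg, up to 10 called at 3 μg/kg or lower, the 5 largest and 5 smallest ratios of 10 to 30 μg/kg, and both families. Other members, and the keratinocyte, Wnt target and EGFR ligand lists, were named after their values were seen. Classes were assigned by hand from the symbols. The values of 1 member are not reported here and it is not drawn, but it is included in all counts over the 42 genes.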

Additional observations from a re-analysis of the deposited data

Results flagged for a closer look

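Of 107 groups of 5 libraries examined, 11 had a library whose gap to the nearest other was over 0.71 of the range of the group. For normally distributed values, chance alone gives such a gap in about 1 in 20 groups. Some groups here held low or tied values, for which that rate does not hold.

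At 10 μg/kg, Clec4d was low in replicate 4 (0.177 CPM against 0.768 to 0.831 CPM in the others), Ren1 was high in replicate 2 (1.43 CPM against 0 to 0.177 CPM) and Rad51ap1 was high in replicate 3 (2.14 CPM against 0.960 to 1.28 CPM).

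At 30 μg/kg, Cdh22 was low in replicate 1 (7.04 CPM against 25.8 to 32.7 CPM). Gm44427 was high in replicate 5 (18.0 CPM against 1.83 to 3.74 CPM), where Rad51ap1 was low (1.43 CPM against 2.12 to 2.36 CPM). Replicate 1 was also the only library at this dose with fewer than 42 of the genes over 3 counts (39).

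In replicate 4 at 0.1 μg/kg, 10 of the genes had more than 3 counts, against 3 to 5 in the others. The summed level of the genes without Nptx1 was low in replicate 4 at 1 μg/kg (5.12 CPM against 6.70 to 7.23 CPM).

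Among the marker lists at 30 μg/kg, the cholangiocyte sum was high in replicate 2 (96.1 CPM against 15.9 to 21.9 CPM), the mouse that was highest in 17 of the 42 genes, and the adipocyte sum was 0.169 CPM in replicate 5 and 0 in the others. The part of these cells in the levels of the 42 genes was not tested.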

How the results depend on the processing

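The size of the set followed its limits. A vehicle maximum of 0 counts gave 16 genes and a maximum of 10 gave 147. A minimum of 30 counts at 30 μg/kg gave 77 genes, a minimum of 100 gave 24, and a demand on all 5 libraries at 30 μg/kg gave 19. The strand-specific column with more reads gave 38 genes, 22 of them in the set of 42. As the strand columns held near equal shares (50.0% to 50.3%), that alternative had fewer counts per gene and does not test the strand. Leaving out each vehicle or 30 μg/kg library gave 44 to 54.

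With the first title pass alone, 22 genes were called at 10 μg/kg, 7 at 3 μg/kg, 1 at 1 μg/kg and 3 in the step from 3 to 10 μg/kg. Of all 15373 genes, 1449, 293, 139 and 115 were called in that pass. With the second pass alone, 3 were called at 1 μg/kg and 6 in the step, against 116 and 217 of all genes. Each pass holds fewer libraries per dose. DESeq2 called 2 genes at 0.3 μg/kg, the second being Sapcd2 (adjusted p = 0.0213), and 31 at 10 μg/kg. Without a filter 37 of all 42 were called at 10 μg/kg, Nyx and Fgfbp1 being added. With the filter set on the 30 libraries from 0.03 to 10 μg/kg, added after seeing the data, 22 members were tested and 22 were called at 10 μg/kg, 13 at 3 μg/kg, 15 in the step and 22 in the slope, since fewer members were tested. All other alternatives gave counts within 1.5 times those reported, and no count of calls turned in direction. Scaling to total counts moved the median log2 difference of all genes at 10 μg/kg from 0.02 to 0.24, with 35 members called, and raised the rising slopes over all genes from 2984 to 5235, with 34 members called.

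Leaving out 1 library at a time gave 32 to 35 calls at 10 μg/kg, 13 to 16 at 3 μg/kg, 7 to 9 at 1 μg/kg, 1 at 0.3 μg/kg, 16 to 24 in the step and 31 to 35 in the slope. Without replicate 1 at 30 μg/kg, an alternative chosen after seeing the data, the counts stayed within these ranges or within 1.5 times those reported.

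No paired analysis was possible because the labels give no replicate numbers shared between the dose groups. Levels near 3 counts per library are at the limit of this depth, and an absent count does not show that a gene is off.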
